A study of Mus musculus with 36 samples.

Results

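Nanog, Zfp42, Klf2, Klf5, Esrrb, Tfcp2l1, Tbx3, Prdm14 and Nr0b1 encode transcription factors and cofactors of the naive pluripotent state, and their mRNAs were followed through 36 mouse RNA-seq libraries in 16 groups. The 9 genes were taken by symbol, as a list drawn up with earlier results of these data known, from the 25239 genes listed for P-body and cytoplasm RNA, the 25229 listed for polysome-bound and total RNA, and the 48440 listed for Ago2 knockout (KO) cells. All 9 were listed in each table and passed the read minimum in every ES cell comparison.

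P-bodies are membraneless granules of mRNA and RNA-binding proteins in the cytoplasm, sorted here as fluorescent particles from cells expressing GFP-LSM14A. Cytoplasm of the same kind of cell, taken before sorting, was sequenced beside them. Naive embryonic stem (ES) cells were grown with LIF and the inhibitors PD0325901 and CHIR99021. Primed ES cells were induced from naive cells with activin A and bFGF. The Ago2 KO ES line grew from single sorted cells after CRISPR deletion and lacks an Argonaute protein that carries miRNAs to their targets. Polysome-bound and total RNA came from naive DDX6 degron ES cells, a single-cell-derived line with both Ddx6 alleles tagged. The cells were harvested within hours of adding dTAG-13, or as controls alongside. dTAG-13 triggers degradation of DDX6, a helicase needed for P-bodies. Mouse embryonic fibroblasts (MEFs) carried M2-rtTA, a Pou5f1-EGFP reporter and a doxycycline-inducible OKSM cassette for Oct4, Klf4, Sox2 and Myc, which holds none of the 9 genes. They were sequenced as labelled controls and, 3 days into reprogramming, after knockdown of Nudt21 or a control treatment. P-body and cytoplasm groups had 2 libraries each, and polysome and total RNA groups 3. MEFs came from mid-gestation embryos. The study describes its replicates as biological, and the labels do not say which cultures or embryos they came from.

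In the mouse embryo, naive pluripotency is the state of the preimplantation epiblast, and ES cells hold it in culture with LIF signalling and inhibition of the ERK kinase cascade. Esrrb, Klf2, Klf5, Tfcp2l1, Tbx3 and Nanog encode DNA-binding factors that bind many of the same enhancers and can partly stand in for one another in self-renewal. Most members of the network are switched off as cells leave the naive state for the primed state, while Pou5f1 and Sox2 stay on in both.

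miRNAs guide Argonaute proteins to 3′ UTRs through a seed, and the study examined them as a route into P-bodies. The seeds of let-7a, miR-300, miR-381 and miR-294 were therefore searched, as exact reverse complements of bases 2 to 8, in the 3′ UTR of the longest GENCODE transcript of each member. The mature sequences are RefSeq entries of GRCm38.p6, with the seed in capitals.
mmu-let-7a-5p: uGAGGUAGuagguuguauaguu
mmu-miR-300-3p: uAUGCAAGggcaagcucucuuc
mmu-miR-381-3p: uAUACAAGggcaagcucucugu
mmu-miR-294-3p: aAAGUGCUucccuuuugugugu

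Only Esrrb, Nr0b1 and Tfcp2l1 held a match among the 9 members, and these 4 stretches of 3′ UTR are shown because they are all the matches found. Capitals mark the match, and positions are GRCm38 (mm10), plus strand.
Esrrb, let-7a: tcctgcccCTACCTCagccagcc
Nr0b1, miR-381: caaactttCTTGTATttttacat
Tfcp2l1, miR-300: tgcatcccCTTGCATcctgcagc
Tfcp2l1, miR-294: gatggccgAGCACTTcccaactg
The Esrrb stretch lies at chr12:86519674-86519696, and its match begins at base 617 after the stop codon in a 3′ UTR of 2563 bases. That of Nr0b1 lies at chrX:86195682-86195704, with the match from base 95 of a 3′ UTR of 352 bases. Those of Tfcp2l1 lie at chr1:118684253-118684275 and chr1:118683197-118683219, with the matches from bases 6827 and 5771 of a 3′ UTR of 7734 bases. Each seed thus matched 1 of 9 members, beside 10.1% of all genes for let-7a (CTACCTC), 9.42% for miR-300 (CTTGCAT), 12.1% for miR-381 (CTTGTAT) and 16.4% for miR-294 (AGCACTT). Among genes with 3′ UTRs in the members' range of lengths the shares were 11.8%, 11.2%, 14.3% and 19.7%. A match is a stretch of letters and not a shown site. The pentamer ATTTA, the core of AU-rich elements that destabilising proteins bind, was present in the 3′ UTR of 8 of 9 members, beside 67.1% of all genes and 78.1% of genes with 3′ UTRs in that range. Zfp42 was the member without it, and Tfcp2l1 held 7 copies.

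Libraries of naive and primed fractions held 6769730 to 12772200 reads, those of MEF and day 3 fractions 19384700 to 31185900, polysome and total RNA libraries 13308800 to 29362200, and Ago2 KO libraries 15624400 to 17486300. Replicates differed by more than counting noise in every group. The 2 naive cytoplasm libraries stood furthest apart among naive and primed groups (SD of the log2 difference between them 0.43 across genes, against 0.15 between the naive P-body libraries), and the Ago2 KO cytoplasm libraries stood furthest apart of all (0.61). The 10 most abundant genes took 25.0% and 41.6% of reads in the 2 Ago2 KO cytoplasm libraries and 13.0% and 17.8% in the KO P-body libraries, against at most 8.44% in any other library, and the part of this skew in the KO values below was not tested. The Ago2 KO label held, with Ago2 at 2.57 to 4.52 counts-per-million (CPM) in the KO libraries. It lay at 67.2 to 111 CPM in naive libraries, which came from another pipeline. Nudt21 mRNA was not examined, so the knockdown label was not checked in this way. Ddx6 mRNA is no test of a protein degron, and was 189, 186 and 199 CPM in degron and 238, 227 and 208 CPM in control total RNA. The 8 fibroblast markers (Col1a1, Thy1 and others) summed to 36733 to 39996 CPM in MEF cytoplasm and to at most 22.4 CPM in naive libraries. The 15 primed and formative markers summed to 463 and 950 CPM in the 2 naive cytoplasm libraries and to 2070 to 2291 CPM in primed cytoplasm. The 6 2-cell-like genes (Zscan4c and others) summed to 215 and 549 CPM in naive cytoplasm and to 622 to 861 CPM in primed cytoplasm. In P-bodies they summed to 498 to 501 CPM in naive and 725 to 762 CPM in primed cells. What part either list has in the results below was not tested.

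All 9 mRNAs were higher in naive than in primed ES cells, in the cytoplasm and in P-bodies, and no naive library overlapped a primed one for any of them. These genes are themselves used to tell the 2 states apart, so the comparison also checks the labels. In bulk RNA, fewer cells with a transcript and less of it per cell cannot be told apart.

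Nanog, the homeobox factor of the pluripotency core, kept the highest primed level. It was at 623 and 715 CPM in naive cytoplasm and at 151 and 148 CPM in primed cytoplasm, a log2 difference of 2.36 ± 0.11 (SE, n = 2 and 2; edgeR quasi-likelihood test, Benjamini-Hochberg adjusted p = 1.67e-04). In P-bodies it was at 378 and 370 CPM in naive and 168 and 164 CPM in primed cells, and the difference of 1.40 ± 0.04 was the least of the 9 there. Esrrb, an orphan nuclear receptor that can replace Nanog in self-renewal, fell further. Its naive cytoplasm values were 144 and 140 CPM and its primed ones 19.1 and 20.6 CPM, and the log2 difference was 3.04 ± 0.14 in the cytoplasm and 3.23 ± 0.11 in P-bodies.

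Tfcp2l1, Klf2, Klf5 and Tbx3 encode factors that act downstream of LIF and of the 2 inhibitors. Tfcp2l1, a grainyhead-family factor, was at 339 and 318 CPM in naive and 17.4 and 13.0 CPM in primed cytoplasm. Klf2, a Krüppel-like zinc finger protein, was at 419 and 312 CPM in naive and 20.2 and 24.4 CPM in primed cytoplasm. Tbx3, a T-box factor, was at 224 and 361 CPM in naive and 10.8 and 11.3 CPM in primed cytoplasm. These 3 differed by 4.64 ± 0.19, 4.23 ± 0.23 and 4.91 ± 0.25 on the log2 scale, or 24.9-, 18.8- and 30.1-fold, beside 5.12-fold for Nanog. Klf5, the other Krüppel-like factor, had the least difference of the 9 in the cytoplasm, from 205 and 181 CPM to 58.8 and 52.2 CPM (log2 difference 2.0 ± 0.15).

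Prdm14, which represses FGF receptor signalling and DNA methyltransferases in naive cells, showed the greatest cytoplasmic difference. It was at 88.6 and 115 CPM in naive cytoplasm and at 1.03 and 2.62 CPM in primed cytoplasm, the latter from 7 and 21 reads, and the log2 difference was 5.95 ± 0.34 (5.46 without primed cytoplasm library 1 and 6.79 without library 2). Zfp42 (REX1), a zinc finger protein used as a marker of naive cells, was at 444 and 533 CPM against 48.3 and 49.9 CPM. Nr0b1 (DAX1), a nuclear receptor without a DNA-binding domain of the usual kind that acts as a corepressor, was at 106 and 262 CPM against 8.42 and 5.99 CPM. Its 2 naive cytoplasm libraries thus differed more than 2-fold, and its log2 difference of 4.87 ± 0.48 was 5.35 without library 1 and 4.12 without library 2. Its adjusted p of 0.00108 was the highest of the 9 in the cytoplasm.

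**Figure D1:**
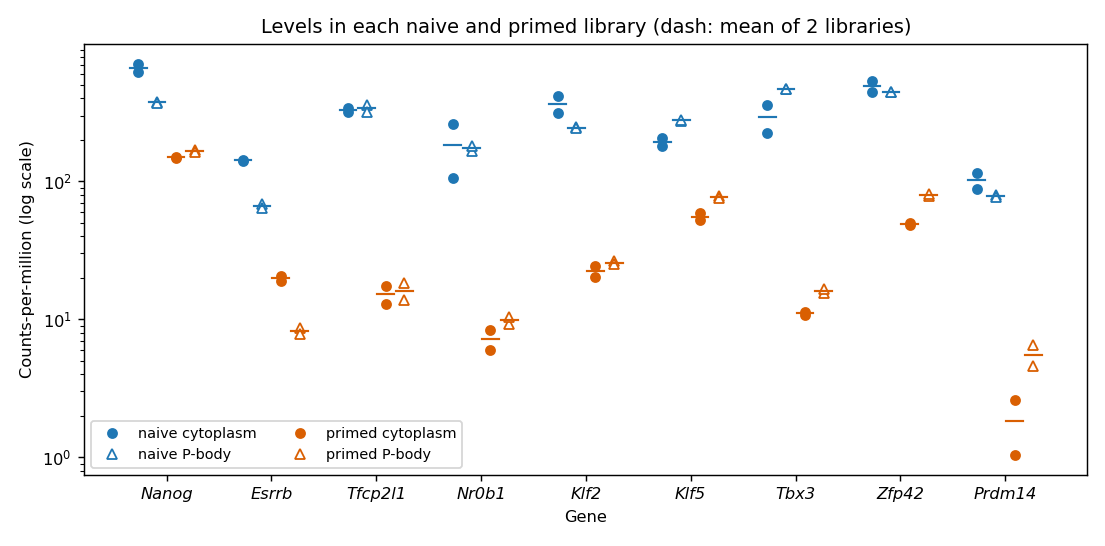
Level of each of the 9 genes in the 8 naive and primed libraries, in counts-per-million on a log scale, with circles for cytoplasm, triangles for P-bodies and a dash at the mean of 2 libraries. Every naive value lies above every primed value of the same gene and fraction, with Nanog at 623 and 715 against 151 and 148 CPM in the cytoplasm and Prdm14 at 88.6 and 115 against 1.03 and 2.62 CPM.

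All 9 members passed the test upwards in naive cells in both fractions, where 22.1% of all genes tested did so in the cytoplasm and 33.6% in P-bodies. Their median log2 difference was 4.23 in the cytoplasm and 3.47 in P-bodies, beside medians of all genes of 0.0033 and -0.040. In P-bodies Tbx3 differed most (5.10 ± 0.06), followed by Tfcp2l1 (4.62 ± 0.09), Nr0b1 (4.37 ± 0.08), Prdm14 (4.05 ± 0.12) and Klf2 (3.47 ± 0.06). Zfp42 differed by 2.71 ± 0.05 there, or by 3.51 ± 0.13 in the cytoplasm, and Klf5 by 2.07 ± 0.05. Scaling by library totals in place of TMM moved the median of all genes by -0.20 in the cytoplasm and by -0.23 in P-bodies, and left all 9 members above it. Among the other genes of the network, 9 of 12 core and LIF-linked regulators were higher in naive cytoplasm and 2 were lower. Klf4, a further Krüppel-like factor, differed by 4.74 ± 0.27, Nr5a2 by 3.97 ± 0.48 and Pou5f1 by 1.97 ± 0.15, while Gbx2 was lower in naive cells by -2.11 ± 0.18. Of 12 other naive marker genes 10 were higher and 0 lower, and of 15 primed and formative marker genes 1 was higher and 10 lower, with Otx2 at -2.62 ± 0.23. These lists were written with earlier results of these data known. Over all 16125 genes tested in the cytoplasm, 3569 were called higher and 3487 lower in naive cells.

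Per kilobase of the longest transcript, Nanog led in naive cytoplasm at 302 ± 29.4 CPM per kb (SD, n = 2), with Zfp42 at 266 ± 34.5 overlapping it. Klf2 followed at 198 ± 40.9, and Nr0b1 at 102 ± 60.9 overlapped Tbx3 at 58.7 ± 19.4, which overlapped Klf5 at 57.6 ± 5.13. Prdm14 at 39.8 and Tfcp2l1 at 35.4 CPM per kb overlapped too, and Esrrb was lowest at 33.0 ± 0.63. In primed cytoplasm Nanog was at 67.7 ± 1.05, Zfp42 at 26.7 ± 0.61 and Klf5 at 16.6 ± 1.38 CPM per kb, with no overlap among the 3. Klf5 stood above Klf2 in primed cells (12.1 ± 1.61) and below it in naive cells, and Prdm14 moved to the last place at 0.71 ± 0.44 CPM per kb. In naive P-bodies the order began with Zfp42 at 241 ± 1.03 and Nanog at 169 ± 2.43 CPM per kb, and ended with Esrrb at 15.4 ± 0.68. Zfp42 and Nanog did not overlap there, as they did in naive cytoplasm.

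By likeness of pattern over the 4 naive and primed group means, the nearest of 9937 genes with a mean of at least 10 CPM were Mt2 for Nanog, Gpa33 for Zfp42, Oas1a for Klf2, Vcan for Klf5, Jakmip1 for Esrrb, Lrrc15 for Tfcp2l1, Trpm1 for Tbx3, Spp1 for Prdm14 and Tfcp2l1 for Nr0b1. The distance, on centred log2 means, ran from 0.093 for Zfp42 to 0.54 for Prdm14. Klf4 was the second nearest gene to both Tbx3 and Nr0b1. With 4 points, such nearness is only a description.

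The comparison of P-bodies with cytoplasm asks how the make-up of sorted P-bodies differs from that of the fraction they came from. By the study's methods the cytoplasm was taken before sorting and so still held P-bodies. The ratio therefore does not give the share of an mRNA inside them. In naive cells the 9 mRNAs did not share a direction. Tbx3 and Klf5 were enriched in P-bodies, Nanog and Esrrb were depleted, and the other 5 did not pass the test. The 2 calls upwards compare with 22.6% of all genes called higher, and the 2 downwards with 15.4% called lower, so the members' shares lay near the background. The median log2 enrichment of the 9 was 0.086 and that of all genes -0.059.

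Esrrb was at 68.2 and 64.1 CPM in naive P-bodies against 144 and 140 CPM in the cytoplasm, a log2 enrichment of -0.88 ± 0.11 (edgeR adjusted p = 0.00271). Nanog, with the cytoplasm values given above, was at -0.61 ± 0.10 (adjusted p = 0.0068). For both genes the 2 P-body libraries lay below the 2 cytoplasm libraries. Klf5 was at 276 and 277 CPM in P-bodies against 205 and 181 CPM (0.74 ± 0.12, adjusted p = 0.00771), and Tbx3 at 471 and 464 CPM against 224 and 361 CPM (0.91 ± 0.21, adjusted p = 0.0213). P-body and cytoplasm values did not overlap for either gene.

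Klf2 had an enrichment of -0.37 ± 0.18, Prdm14 of -0.15 ± 0.13, Tfcp2l1 of 0.26 ± 0.12, Zfp42 of 0.086 ± 0.11 and Nr0b1 of 0.15 ± 0.38. None of these 5 passed (adjusted p from 0.145 to 0.774). Nr0b1 was at 166 and 180 CPM in P-bodies, between its 2 cytoplasm values of 106 and 262 CPM. Its enrichment was -0.33 without naive cytoplasm library 1 and 0.90 without library 2, past the threshold in both cases. Leaving out either naive P-body library ended all 4 calls, with values that kept their sign. Without naive cytoplasm library 2, Nanog was at -0.54, Klf5 at 0.63 and Tbx3 at 1.26. With library totals the median of all genes moved by -0.22, Tbx3 was at 0.68 (adjusted p = 0.0611) and Klf2 passed at -0.58 (adjusted p = 0.0335), and Zfp42 changed sign to -0.14.

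In primed cells 5 of the 9 were enriched in P-bodies, where 26.5% of all genes were called higher, and 1 was depleted, where 24.2% were called lower. Prdm14 had the highest enrichment, from 1.03 and 2.62 CPM in the cytoplasm to 4.58 and 6.51 CPM in P-bodies (log2 enrichment 1.58 ± 0.37, adjusted p = 0.00346). This value was 1.1 without primed cytoplasm library 1 and 2.44 without library 2. Zfp42 was at 78.0 and 81.3 CPM in primed P-bodies against 48.3 and 49.9 CPM (0.73 ± 0.08, adjusted p = 1.31e-05). Both genes had P-body values above all cytoplasm values.

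Tbx3 (0.56 ± 0.15, adjusted p = 0.00768) and Klf5 (0.52 ± 0.09, adjusted p = 3.40e-04) were enriched in primed P-bodies as they were in naive ones. Esrrb was depleted again, with 8.58 and 7.87 CPM in P-bodies against 19.1 and 20.6 CPM in the cytoplasm (-1.23 ± 0.15, adjusted p = 2.47e-05). Nanog was slightly enriched (0.18 ± 0.06, adjusted p = 0.0269), a call that ended with DESeq2 (adjusted p = 0.0910), with library totals (0.0666), with all groups in 1 fit (0.571) and without any of 3 libraries. The Tbx3 call ended with DESeq2 (adjusted p = 0.0711), with all groups in 1 fit (0.0501) and without primed P-body library 2 (0.0577), and that of Zfp42 with all groups in 1 fit (0.0561). Klf2 was at 0.23 ± 0.13, Tfcp2l1 at 0.13 ± 0.18 and Nr0b1 at 0.50 ± 0.21 without passing. The median of the 9 was 0.50, beside 0.00063 for all genes.

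The test of the difference in enrichment between the states, an interaction over the 4 groups, called 4 members, all with lower enrichment in naive than in primed cells. Among all genes 11.4% were called lower. Nanog differed by -0.94 ± 0.11 (adjusted p = 6.66e-04), Zfp42 by -0.79 ± 0.13 (0.00259), Prdm14 by -1.88 ± 0.40 (0.00964) and Klf2 by -0.74 ± 0.23 (0.0453). Nanog lay below the cytoplasm in naive P-bodies (-0.61 ± 0.10) and near it in primed ones (0.18 ± 0.06), where its call ended under several alternatives. Esrrb, depleted in both states, differed by 0.21 ± 0.16 and Klf5, enriched in both, by 0.085 ± 0.15, and neither passed.

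The differences of Tbx3 (0.20 ± 0.28), Tfcp2l1 (-0.0026 ± 0.22) and Nr0b1 (-0.48 ± 0.55) were smaller than or near their errors. The Klf2 call ended with DESeq2 size factors (adjusted p = 0.0652), with either other read filter (0.0740 and 0.0665), with all groups in 1 fit (0.0569) and without any of 6 libraries. The fit of all groups also ended the calls of Nanog (adjusted p = 0.0693) and Zfp42 (0.276), and that of Prdm14 ended without primed P-body library 2 (-1.48, 0.0682) or primed cytoplasm library 1 (-1.29, 0.0607), and the value was -2.74 without primed cytoplasm library 2. Primed Prdm14 rests on 7 and 21 cytoplasm reads.

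**Figure D2:**
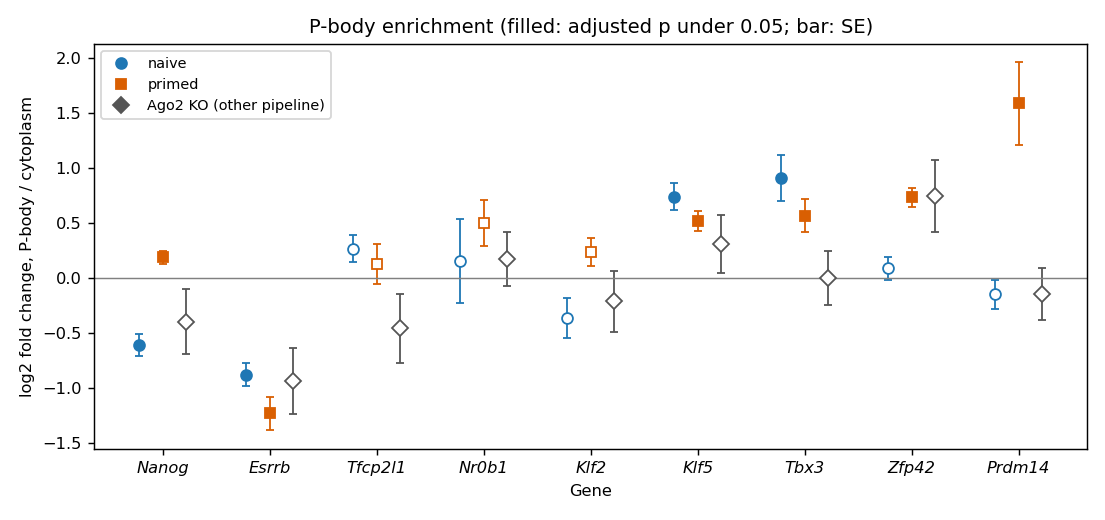
P-body enrichment of each gene as the log2 ratio of P-body to cytoplasm with its SE, for naive (circles), primed (squares) and Ago2 KO ES cells (diamonds), filled where the adjusted p is under 0.05. Esrrb lies below 0 in all 3 (-0.88, -1.23 and -0.94), Klf5 above 0 in all 3 (0.74, 0.52 and 0.30), and Prdm14 is at 1.58 in primed cells and at -0.15 in both others.

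In Ago2 KO ES cells 0 of 9 members passed the test, with 2 under an unadjusted p of 0.05. Of all genes 5.47% were called higher and 1.05% lower there, and 4031 had an unadjusted p under 0.05. KO P-body libraries had 115 and 140 CPM of Esrrb and the KO cytoplasm 206 and 268 CPM, an enrichment of -0.94 ± 0.30 (adjusted p = 0.0964). Its fractions did not overlap, and the value sits beside -0.88 ± 0.11 in naive cells. DESeq2 called Esrrb alone (adjusted p = 0.0176). The P-bodies had been sorted from the cytoplasmic fraction they are compared with, of which the sequenced part was taken before sorting. Same-numbered KO libraries deviated together (correlation 0.602 across genes). With the replicate number as a block, Esrrb (-0.92 ± 0.26, adjusted p = 0.0033) and Zfp42 (0.78 ± 0.28, adjusted p = 0.0276) passed, and the calls over all genes went from 1095 to 4178.

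Nanog was at -0.40 ± 0.30 in the KO, with 270 and 352 CPM against 375 and 423 CPM, and Zfp42 at 0.74 ± 0.33, with 505 and 432 CPM against 359 and 196 CPM. Tfcp2l1, the member with matches to 2 of the seeds, was at -0.46 ± 0.31 in the KO and 0.26 ± 0.12 in naive cells. Nr0b1, with a match to miR-381, was at 0.17 ± 0.25 and 0.15 ± 0.38. Esrrb, with the match to let-7a, was at -0.94 ± 0.30 and -0.88 ± 0.11. Klf5 was at 0.30 ± 0.26, Tbx3 at -0.0029 ± 0.25, Prdm14 at -0.15 ± 0.24 and Klf2 at -0.22 ± 0.28. KO and naive libraries were counted by different pipelines, so the 2 sets of values stand side by side and their difference was not tested. Without Ago2 KO cytoplasm library 1, Esrrb was at -1.30, Nanog at -0.67, Tfcp2l1 at -0.85 and Zfp42 at 1.03.

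Of the 12 core and LIF-linked regulators, 5 were enriched and 2 depleted in naive P-bodies, and 7 were enriched and 2 depleted in primed ones. Sox2 was enriched in both states (2.85 ± 0.28 and 2.20 ± 0.08) and Pou5f1 was depleted in both (-0.83 ± 0.14 and -0.64 ± 0.07). Klf4 was at 0.62 ± 0.19 in naive cells (adjusted p = 0.0541) and was enriched by 0.51 ± 0.19 in primed cells. Of 12 other naive marker genes, 2 were enriched and 4 depleted in naive P-bodies and 7 enriched and 3 depleted in primed ones, with Tet2, a DNA demethylation enzyme, at 2.45 ± 0.28 and 1.84 ± 0.06. In the test of the difference, 5 of these 12 had lower and 1 had higher enrichment in naive cells, with Dppa3 at -0.80 ± 0.24 and Spp1 at -2.25 ± 0.22, while 5 of 15 primed markers had higher and 1 lower enrichment. Of the 12 core and LIF-linked regulators 3 had higher and 2 lower enrichment in naive cells, with Gbx2 at 0.66 ± 0.19. Their median difference of 0.12 lay above that of all genes (-0.043), where the members' median was -0.48. Over all 17199 genes tested for this difference, 2389 were called higher and 1960 lower.

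Ribosome occupancy, the log2 ratio of polysome-bound to total RNA, was below that of the median gene for all 9 members in both conditions. In control cells 8 of 9 passed the test downwards, where 24.1% of all genes did, and in degron cells all 9 passed, where 26.8% of all genes did. The members' medians were -0.33 and -0.29, beside 0.023 and 0.024 for all genes. The scale decides where 0 lies: with library totals the median of all genes moved by 0.17 and 0.18, 5 and 4 members passed downwards, and Zfp42 (0.071 and 0.079) and Nanog in degron cells (0.0094) lay above 0. Relative to the median of all genes, all 9 were lower by 0.12 to 0.58 in control cells and by 0.13 to 0.49 in degron cells with TMM, and by nearly the same amounts with library totals.

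Klf5 had the lowest occupancy in control cells. It was at 70.9, 68.4 and 59.6 CPM in polysome-bound RNA and at 90.6, 84.1 and 86.9 CPM in total RNA, an occupancy of -0.56 ± 0.07 (edgeR adjusted p = 4.19e-06, n = 3 and 3). Prdm14 was at 59.7, 60.2 and 57.9 CPM against 75.1, 74.9 and 73.5 CPM (-0.50 ± 0.06), and Tbx3 at 105, 107 and 93.4 CPM against 129, 131 and 122 CPM (-0.49 ± 0.06). Every polysome library lay below every total RNA library for these 3 genes. They also passed in degron cells, at -0.43 ± 0.05, -0.46 ± 0.05 and -0.39 ± 0.06, and with library totals in both conditions. Klf5 and Tbx3 were also the 2 members enriched in naive P-bodies, while Prdm14 was not.

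Tfcp2l1 was at 612, 586 and 499 CPM in polysome-bound and 719, 713 and 649 CPM in total control RNA (-0.46 ± 0.07). In degron cells it was at 502, 492 and 513 CPM against 509, 506 and 542 CPM (-0.23 ± 0.04). It passed in both conditions, but not in degron cells with library totals (-0.048, adjusted p = 0.328). Esrrb was at -0.33 ± 0.06 in control and -0.25 ± 0.04 in degron cells, Nr0b1 at -0.29 ± 0.07 and -0.29 ± 0.05, and Klf2 at -0.27 ± 0.08 and -0.30 ± 0.04. Nanog, the most abundant member in total RNA, was at 892, 889 and 844 CPM against 931, 916 and 896 CPM (-0.23 ± 0.06, and -0.17 ± 0.04 in degron cells). Zfp42 was nearest to 0, at 254, 257 and 272 CPM against 255, 253 and 238 CPM in control cells (-0.095 ± 0.06, adjusted p = 0.261) and at -0.10 ± 0.04 in degron cells, a call near the threshold (adjusted p = 0.0432) that ended with no read filter, with all groups in 1 fit and without any of 5 libraries.

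**Figure D3:**
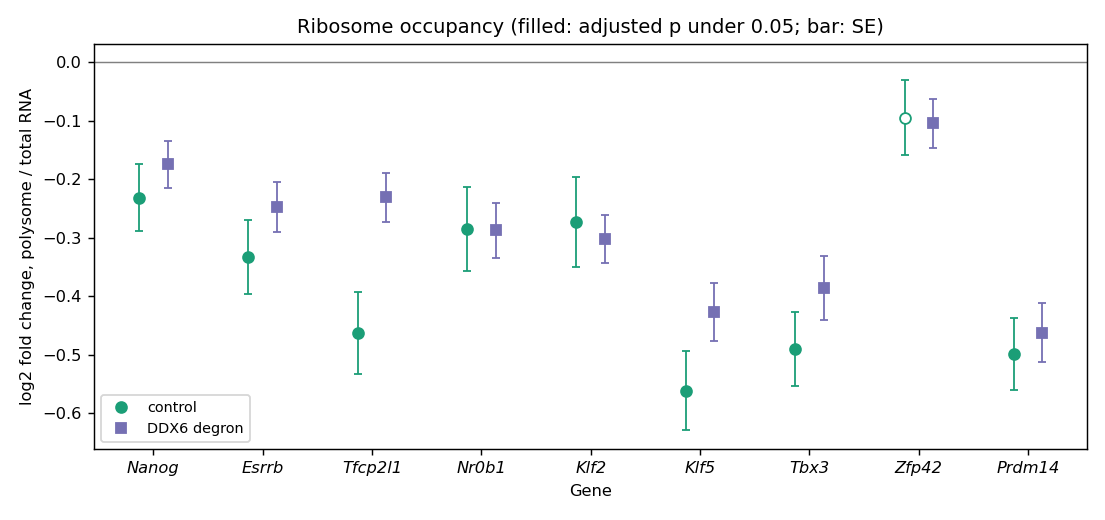
Ribosome occupancy of each gene as the log2 ratio of polysome-bound to total RNA with its SE after TMM scaling, for control (circles) and DDX6 degron cells (squares), filled where the adjusted p is under 0.05. All 9 genes lie below 0 in both, from -0.56 for Klf5 to -0.095 for Zfp42 in control cells, and with library totals Zfp42 lies above 0 in both and Nanog in degron cells.

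Loss of DDX6 was compared with control to ask whether ribosome occupancy changes when P-bodies dissolve. The interaction test called 0 of 9 members, and in the direction of higher occupancy 0% of all genes. Among all genes 844 had an unadjusted p under 0.05 and DESeq2 called 4. These are calls of single genes. The study compared P-body-enriched mRNAs as a group with other mRNAs, and reported that their occupancy rose after DDX6 loss. Such a shift of a group was not tested here. Tfcp2l1 had the greatest difference of the 9, 0.23 ± 0.08 higher in degron cells (unadjusted p = 0.0122, adjusted p = 0.879). Klf5 was at 0.13 ± 0.08 and Tbx3 at 0.10 ± 0.09, and the other 6 lay between -0.034 and 0.082.

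Total RNA of Tfcp2l1 was lower in degron cells, at 509, 506 and 542 CPM against 719, 713 and 649 CPM in control cells, with no overlap (-0.42 ± 0.05, adjusted p = 0.00333). It was the 1 member called, where 2.07% of all genes were called lower, and the call ended without degron total library 1 (-0.41, adjusted p = 0.0565). Klf5 and Tbx3 were both at -0.20 ± 0.06 (adjusted p = 0.0782), and DESeq2 called both (adjusted p = 0.0397 and 0.0339). Of the 9, 8 lay below 0 and Klf2 lay above it (0.16 ± 0.06, adjusted p = 0.173), and 6 had an unadjusted p under 0.05. Control total library 3 had the lowest Tfcp2l1 of the 3. Without that library 5 members passed, and calls over all genes came to 3373, against 191 higher and 318 lower with it. Nanog (-0.081 ± 0.04), Prdm14 (-0.041 ± 0.06) and Nr0b1 (-0.021 ± 0.07) were within about 2 SE of 0, and Esrrb was at -0.12 ± 0.05 (adjusted p = 0.224) and Zfp42 at -0.12 ± 0.05 (0.217).

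In polysome-bound RNA 0 of 9 members passed between degron and control cells, 3 had an unadjusted p under 0.05, and 2.36% of all genes were called lower, with 2870 under an unadjusted p of 0.05. Tfcp2l1 was again the lowest, at -0.18 ± 0.06 (adjusted p = 0.0949), and DESeq2 called it (adjusted p = 0.0281). Klf2 was at 0.14 ± 0.06 and Zfp42 at -0.12 ± 0.05. Tbx3 was at -0.087 ± 0.06 and Klf5 at -0.060 ± 0.06, and Esrrb, Nr0b1, Nanog and Prdm14 lay between -0.032 and 0.0024. The total and polysome-bound differences of Tfcp2l1 are those whose gap the interaction test measures.

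Of the 12 core and LIF-linked regulators, 9 had lower and 1 had higher occupancy in control cells, with Stat3, which transmits the LIF signal, at -1.63 ± 0.07, Sox2 at -0.24 ± 0.06, Nr5a2 at -0.34 ± 0.08 and Pou5f1 at 0.26 ± 0.07. The other naive marker genes were more evenly divided, with 6 of 12 higher and 4 lower. Of 15 primed markers, 6 were lower and 0 higher. Over all 15411 genes tested in control cells, 2891 were called higher and 3719 lower. In total RNA of degron cells 2 of 12 core regulators were lower (Sall4 and Zfp281), 0 of 12 other naive markers changed, and 3 of 15 primed markers were lower.

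In MEFs most members were near 0 and Klf2, Tbx3 and Klf5 were not. Klf2 was at 31.0 and 31.6 CPM in MEF cytoplasm, above its primed cytoplasm values of 20.2 and 24.4 CPM from libraries of the same table. Tbx3 was at 20.0 and 22.3 CPM and Klf5 at 10.3 and 12.0 CPM. Nanog had 22 and 9 reads in MEF cytoplasm, Esrrb had 0 and 0, Prdm14 0 and 3, Zfp42 5 and 0, and Nr0b1 0 in all 4 MEF libraries. For a group with 0 reads a floor of 3 reads over the group is used, which covers counting error only.

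The 3 comparisons of fibroblasts and day 3 cells that follow were added after these levels had been seen. At day 3 with the control knockdown, 3 of 7 tested members were higher than in MEF cytoplasm, where 35.5% of all genes were, and 2 were lower, where 33.7% were. Klf2 fell from 31.0 and 31.6 CPM to 5.91 and 4.58 CPM (log2 difference -2.74 ± 0.13, adjusted p = 4.05e-11) and Tbx3 from 20.0 and 22.3 to 11.0 and 11.6 CPM (-1.06 ± 0.12). Klf5 rose from 10.3 and 12.0 to 18.0 and 19.5 CPM (0.59 ± 0.13, adjusted p = 6.16e-04). The Krüppel-like pair thus moved in opposite directions.

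Tfcp2l1 rose from 0.481 and 0.133 to 1.5 and 1.35 CPM (2.03 ± 0.56, adjusted p = 0.0045), a call that ended without MEF cytoplasm library 2 (1.36, adjusted p = 0.0504), while the value without MEF cytoplasm library 1 was 3.22. Nanog (-0.79 ± 0.80) and Zfp42 (1.78 ± 1.17) did not pass, on 2 and 15 reads each in the day 3 control. Nr0b1 had 12 and 10 reads in day 3 control cytoplasm against 0 and 0 in MEFs. Its mean was 8.52-fold the MEF floor, with the counting error of its own reads left out. The 8 fibroblast markers summed to 5968 to 6127 CPM in day 3 control cytoplasm and to 2097 to 2102 CPM with the Nudt21 knockdown, beside 36733 to 39996 CPM in MEFs. Their part in the members' differences was not tested.

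Nudt21 encodes a subunit of the cleavage factor that selects 3′ ends. With its knockdown, Nr0b1 stood out among the 9 at day 3. It had 355 and 223 reads in the cytoplasm, or 11.5 and 10.5 CPM, against 0.449 and 0.385 CPM in the control (log2 difference 4.70 ± 0.26, adjusted p = 2.21e-10). In P-bodies it was at 11.3 and 16.4 CPM against 0.389 and 0.825 CPM (4.53 ± 0.44, adjusted p = 3.63e-04), and the difference ran from 4.05 without control P-body library 1 to 5.17 without control P-body library 2. Against MEFs, whose 0 reads set a floor, the mean was 226-fold the floor in knockdown cytoplasm and 236-fold in knockdown P-bodies. These levels were above the 8.42 and 5.99 CPM of primed cytoplasm and far below the 106 and 262 CPM of naive cytoplasm.

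In all, 2 of 7 tested members were higher with the Nudt21 knockdown in the cytoplasm, where 24.6% of all genes were, and 2 were lower, where 25% were. Zfp42 was the other one higher, with 87 and 46.5 reads against 2 and 15 (2.93 ± 0.54, adjusted p = 2.35e-04), and its difference was 2.1 without control cytoplasm library 1 and 4.97 without library 2. Klf5 was lower, at 11.4 and 12.6 CPM against 18.0 and 19.5 CPM (-0.67 ± 0.13, adjusted p = 3.69e-04). Nanog was called lower from 0 and 1 reads against 2 and 15 (adjusted p = 0.0467), a call on so few reads that it ended with DESeq2 (adjusted p = 0.105), with no read filter (0.0589), with the replicate block (0.0693) and without knockdown cytoplasm library 1 (0.156), and whose log2 difference went from -2.66 to -6.20 with the knockdown library left out. Nanog and Zfp42 happened to have the same reads in both control cytoplasm libraries.

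Klf2 (-0.37 ± 0.22), Tbx3 (-0.15 ± 0.15) and Tfcp2l1 (-0.14 ± 0.40) did not pass in the cytoplasm. In day 3 P-bodies Nr0b1 was the 1 of 8 tested members called, upwards, where 9.39% of all genes were called higher. Zfp42 was at 2.28 ± 1.07 (adjusted p = 0.174), with 25 and 0 reads in the 2 control libraries, and Klf2 at -1.19 ± 0.38 (adjusted p = 0.0575). Klf5 was at -0.73 ± 0.27 (adjusted p = 0.0966), and Nanog, Esrrb, Tfcp2l1 and Tbx3 lay between -2.23 and 0.0048. Prdm14 had too few reads for a test in any of the 3 comparisons, and Esrrb in the 2 of cytoplasm. Without control P-body library 1, 5 members passed there. Of the core and LIF-linked regulators, 8 of 12 were higher and 1 was lower in knockdown cytoplasm, a count that takes in Pou5f1, Sox2 and Klf4 of the cassette.

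**Figure D4:**
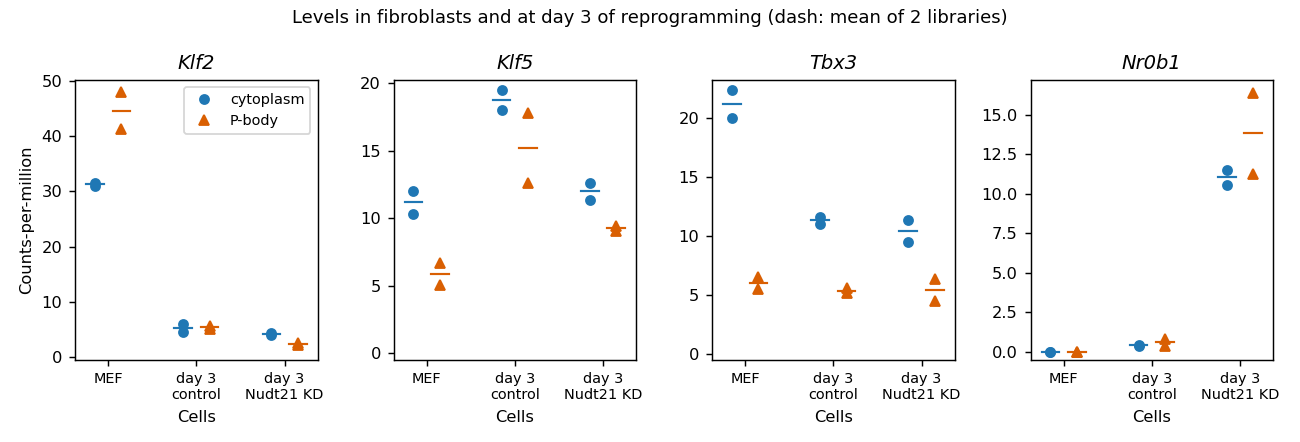
Levels of Klf2, Klf5, Tbx3 and Nr0b1 in counts-per-million in MEFs and in day 3 control and Nudt21 knockdown cells, with circles for cytoplasm, triangles for P-bodies and a dash at the mean of 2 libraries. In the cytoplasm Klf2 goes from 31.0 and 31.6 to 5.91 and 4.58 CPM, and Nr0b1 is at 11.5 and 10.5 CPM with the Nudt21 knockdown against 0.449 and 0.385 CPM in the control.

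The members' transcripts were unlike one another in the features that the gene list did not use. The longest transcripts ran from 1808 bases for Nr0b1 to 9269 bases for Tfcp2l1, with a median of 2564 bases beside 3064 bases over 14292 of the 15630 genes tested in naive cells. GC content ran from 45.8% for Nanog to 61.6% for Klf2, with a median of 50.5% beside 50.7%. 3′ UTRs ran from 352 bases for Nr0b1 to 7734 bases for Tfcp2l1, with a median of 1078 bases beside 1066 bases. In mm10, Nanog (4 exons) lies on chromosome 6 at 122707489 to 122714633, Esrrb on chromosome 12 at 86361117 to 86521628, Tfcp2l1 (15 exons) on chromosome 1 at 118627945 to 118685168 and Nr0b1 (2 exons) on chromosome X at 86191764 to 86195947. Prdm14 is on chromosome 1 as well, Zfp42 and Klf2 are both on chromosome 8, Tbx3 is on chromosome 5 and Klf5 on chromosome 14. Nanog has processed pseudogene copies elsewhere in the genome, and reads shared with them make its counts less certain.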

How the data were processed

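The members and the lists were chosen with earlier results of these data known. RNA-seq was made from P-bodies and cytoplasm (24 libraries) and from polysome-bound and total RNA (12 libraries). For naive, primed, MEF and day 3 fractions the authors made SMART-Seq libraries, aligned them to mm10 with HISAT2 and deposited expected counts per refGene gene from featureCounts (17.6% to 25.7% of values were not whole). For the polysome set, the expected counts that the authors deposited were made by salmon in an nf-core pipeline, and for Ago2 KO cells expected counts from salmon with Ensembl identifiers, whose annotation is not given in the sources used here. The study names SMART-Seq v4 for P-body libraries in general and snapTotal-seq for some, and pairs salmon with the latter, so the kit of the Ago2 KO libraries was left unassigned. Tables of the authors' own DESeq2 comparisons (fold changes and p-values) were not used. Every other column was used (0 left out).

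Counts were rounded. Groups came from the sample titles. Genes were kept when their reads in a fit's libraries came to 10 or more, and were tested with edgeR's quasi-likelihood test (version 4.0.16, R version 4.3.3; TMM scaling, two-sided), and called at a Benjamini-Hochberg adjusted p under 0.05 over all genes tested. There were 11 planned comparisons and 3 added after the levels were seen. SEs were derived from the test statistic. CPM of single libraries use library totals, and per-kilobase values the longest annotated transcript. A fold against a group at 0 reads uses a floor of 3 reads over the group. The fit was tested on simulated counts. The rule for named genes was all 9 members in every comparison that tested them, and from the lists the counts called in each direction with a few examples. Features were found for 91.4% of the genes tested in naive cells, from the GRCm38 annotation, with miRNA sequences from RefSeq (GRCm38.p6). Each result was recomputed with DESeq2 (version 1.42.0), with its size factors in edgeR, with other read filters, with fractions kept, with a replicate block, with a single fit per table, when leaving out each library, and with library totals in place of TMM (added after seeing the data).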

Additional observations from a re-analysis of the deposited data

Results flagged for a closer look

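P-body enrichment differed between naive and primed ES cells for 4 of the 9 genes by the interaction test of edgeR, always lower in naive cells: Nanog by -0.94, Klf2 by -0.74, Prdm14 by -1.88 and Zfp42 by -0.79 on the log2 scale (2 libraries per group). The Klf2 difference passed the threshold least firmly (adjusted p = 0.0453), and the Prdm14 difference rests on 7 and 21 reads in primed cytoplasm. With all groups in a single fit, the calls of Nanog, Zfp42 and Klf2 ended.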

How the results depend on the processing

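Of the values of single members under all alternatives, 1522 were counted as unchanged, 52 lost the threshold, 41 gained it and 8 turned. The 1522 take in 52 changes of sign between uncalled values within 1 SE of 0, which were not counted as turns. All 9 genes stayed higher in naive than in primed cells under every alternative run, and with TMM-scaled CPM. Where leaving out a library left 1 sample in a group, it was assumed to vary like the other groups. Depth limits the members with few reads (Prdm14 in primed cytoplasm, Nanog, Zfp42 and Nr0b1 at day 3). The cause of the shifts below was not tested.

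With library totals in place of TMM, chosen after seeing the data, the naive enrichment of Zfp42 turned to -0.14. Control occupancy then called 5 members with Zfp42 at 0.071, and degron occupancy called 4 members with Nanog at 0.0094 and Zfp42 at 0.079. The share of all calls that were upwards went from 59.4% to 41.5% for naive enrichment, from 50.6% to 38.0% and from 49.4% to 34.7% for naive against primed cytoplasm and P-bodies, and from 43.7% to 65.3% and 47.3% to 67.2% for control and degron occupancy.

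With all groups of a table in 1 fit, primed enrichment called 3 members and 5128 genes in all (8209 otherwise), the naive-primed difference in enrichment called 1 member, day 3 P-bodies 5 members and 5887 genes, day 3 cytoplasm 4877 genes (7934 otherwise), total RNA 1138 genes (509 otherwise) and polysome RNA 362 genes (666 otherwise). With DESeq2, the Ago2 KO enrichment called 1 member and 1731 genes, the occupancy difference 4 genes, total RNA 3 members and 832 genes, and polysome RNA 1 member. With DESeq2 size factors the Ago2 KO enrichment called 716 genes (1095 otherwise), and 93.6% of these calls were upwards against 83.9%. With no read filter, the Ago2 KO enrichment called 1 member and 2643 genes, the occupancy difference 16 genes, total RNA 863 genes, polysome RNA 1 member and 1029 genes, and day 3 P-bodies 3 members.

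With the replicate block, the Ago2 KO enrichment called 2 members (Esrrb and Zfp42) and 4178 genes, the occupancy difference 6 genes and total RNA 82 genes, and no other count of members moved by over 1.5 times. By the study's methods the fractions of a preparation come from 1 lysate, but no label says that equal numbers mark 1 preparation. Correlations of same-numbered deviations ran from -0.048 to 0.191, apart from 0.602 in Ago2 KO cells, and not every pair passed 0.1 in the groups with 3.

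Leaving out each library in turn gave these ranges. For naive enrichment they were 0 to 8 members and 2056 to 10018 genes, with Prdm14 from -0.30 to 0.019 and Nr0b1 from -0.33 to 0.90. For the Ago2 KO enrichment they were 0 to 4 members and 446 to 5617 genes. For the naive-primed difference they were 2 to 5 members and 2293 to 7089 genes, with Tfcp2l1 from -0.10 to 0.33 and Nr0b1 from -0.97 to 0.26. Naive against primed cytoplasm gave 2242 to 9799 genes and the occupancy difference 0 to 52 genes. Total RNA gave 0 to 5 members and 6 to 3373 genes, polysome RNA 0 to 1 members and 179 to 951 genes, and day 3 P-bodies 1 to 5 members and 1365 to 7103 genes.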
